A study of Mus musculus with 16 samples.

Results

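Of the 21684 protein-coding genes in these tables, 41 code for the ephrin, Slit and netrin guidance proteins and their receptors. They were chosen by gene name, with earlier results of these data known. They comprise 9 Epha and 5 Ephb receptors, 5 Efna and 3 Efnb ligands, 3 Slit ligands, 4 Robo receptors, 6 netrins (Ntn1, Ntn3, Ntn4, Ntn5, Ntng1 and Ntng2) and 6 netrin receptors (Unc5a, Unc5b, Unc5c, Unc5d, Dcc and Neo1). Each of the 41 had a row in both tables of 56941 genes.

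RNA was sequenced from mouse pancreatic stellate cells (PSCs) of the immortalized line mPSC1 and from sympathetic superior cervical ganglion (SCG) explants of p1-p4 pups. The PSCs were grown alone (PSC, n = 3) or with SCG explants on the other side of a culture insert (PSC+SCG, n = 3). The explants were grown alone (SCG, n = 3), with mPSC1 cells (SCG+PSC, n = 4) or with NIH/3T3 embryonic fibroblasts (SCG+MEF, n = 3), at 10000 cells per insert for about 70 h. An explant culture pooled 8 to 13 ganglion pieces with all their cell types, and each fibroblast source is 1 cell line. The study lists several dated experimental batches, but the labels tie no library to a date, so the p-values measure the spread between libraries, which may be partly technical.

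Ephrins are membrane ligands of the Eph receptor tyrosine kinases. The ephrin-A ligands are held by a lipid anchor and the ephrin-B ligands span the membrane, and contact between a cell bearing an ephrin and a cell bearing an Eph receptor usually repels the axon or sets a tissue boundary. Slits are secreted and repel growth cones through Robo receptors. Netrin-1 is secreted and attracts through Dcc and neogenin (Neo1) or repels through Unc5 receptors, while the netrin-G proteins Ntng1 and Ntng2 sit on the axon membrane and bind other partners. These families are known as cues for the growth, targeting and branching of axons, and several of their members also act in vessels and connective tissue.

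The labelled cell types carried their own markers. The 10 sympathetic neuron markers summed to between 4012 and 7796 CPM (counts scaled to 1000000 per library) in the explant libraries and to between 48.0 and 79.2 in the PSC libraries. The 8 fibroblast markers summed to between 11775 and 19792 CPM in PSCs. Among them Lum was low in PSCs alone, at a mean of 14.3 normalized counts beside 303889 for Col1a1. The explants held between 6233 and 12414 CPM of the fibroblast markers, beside 1678 to 2344 of 8 glial markers. In SCG alone mural markers summed to 571 to 1211 CPM, macrophage markers to 162 to 266 and endothelial markers to 98.7 to 129. Each explant value is thus a sum over neurons, glia, fibroblasts, mural cells, endothelial cells and macrophages. Fewer cells of a type cannot be told apart from less RNA per cell. Reads on genes numbered 31900689 to 41632381 in the 5 PSC libraries and 32013901 to 39197230 in the 9 explant libraries from which whole reads could be recovered.

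The first question was which guidance genes each culture used at all. Levels of different genes were set side by side as CPM per kb of exon. The 2 tables were scaled separately, so no test was run between PSCs and explants. On this scale 21 of the 41 genes were at or above 1 both in PSCs alone and in SCG alone, 2 were there only in PSCs (Epha1 and Robo3), 9 only in SCG and 9 in neither. Over 21621 protein-coding genes with an exon length the counts were 9943, 652, 1691 and 9335. The plot of levels in every library shows the same split gene by gene.

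**Figure D1:**
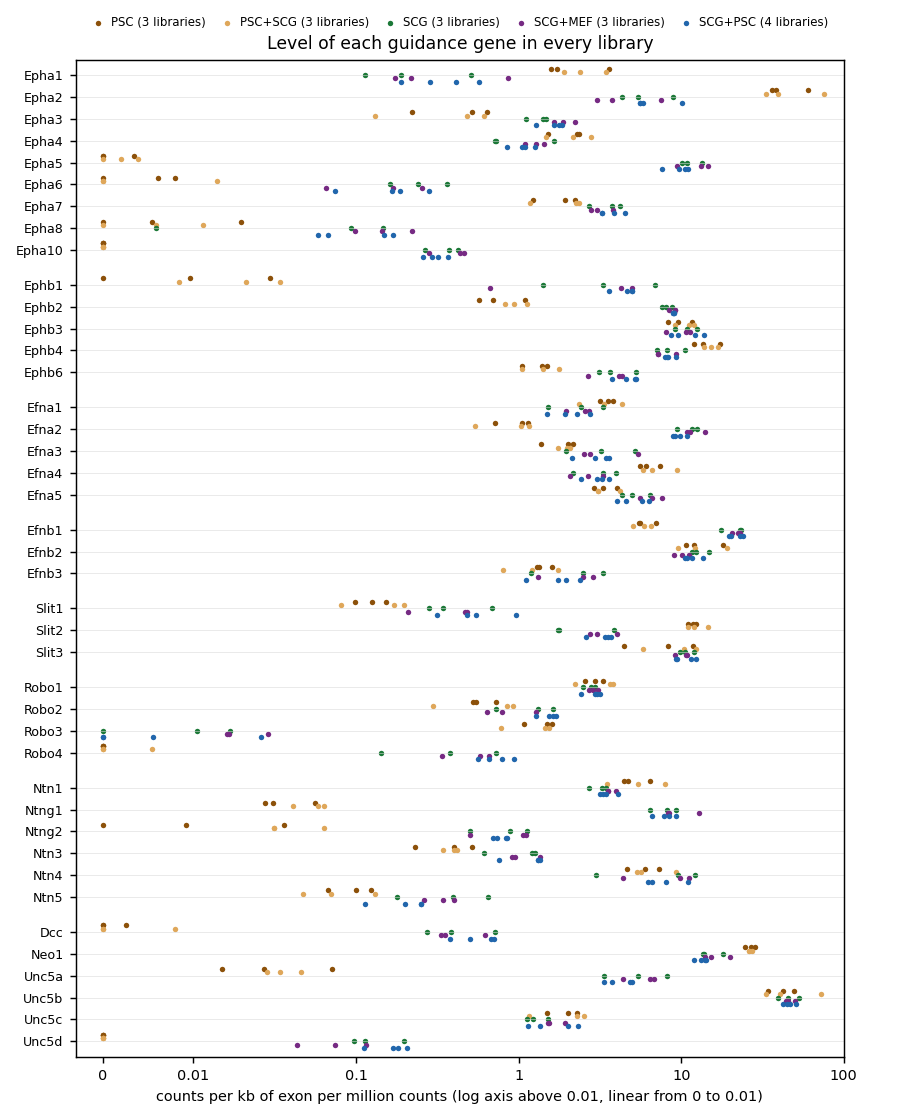
CPM per kb of exon (x axis, logarithmic above 0.01) for each of the 41 guidance genes (y axis, by family), with 1 point per library colored by group. Epha2 and Slit2 lie higher in the PSC libraries, and Epha5, Ephb1, Ntng1 and Unc5a lie near 0 in PSCs and between 0.6 and 15 in the explants.

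Among the Eph receptors PSCs were dominated by Epha2, a receptor that binds ephrin-A ligands and is widely expressed in epithelial and mesenchymal cells. Epha2 stood at 45.0 ± 13.2 CPM per kb in PSCs alone (SD, n = 3) and at 6.21 ± 2.37 in SCG alone (SD, n = 3). The order was the reverse for Epha5, an ephrin-A receptor known from neurons, which was at or below 0.01 in every PSC library and at 11.5 ± 1.67 in SCG alone. Epha6, Epha8 and Epha10 were also near 0 in PSCs and stayed under 0.5 in every explant library. Epha1 stood at 2.29 ± 1.11 in PSCs against 0.270 ± 0.210 in SCG. Epha3, Epha4 and Epha7 had levels of 0.460, 2.05 and 1.79 in PSCs and of 1.33, 1.03 and 3.55 in SCG.

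The Ephb receptors bind ephrin-B ligands. Ephb4, which pairs with ephrin-B2 in vessel growth, led in PSCs at 14.3 ± 2.75 CPM per kb (SD, n = 3) and Ephb3 followed at 9.82 ± 1.68. In SCG alone Ephb3 stood at 10.8 ± 1.63, Ephb4 at 8.64 ± 1.76 and Ephb2 at 8.16 ± 0.613 (SD, n = 3), and the libraries of Ephb4 overlapped those of both other receptors. Ephb1 was at 0.0131 in PSCs and at 3.87 ± 2.78 in SCG.

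All 8 ephrin ligands were detected in both cultures. In PSCs Efnb2 stood at 13.6 ± 4.02, Efna4 at 6.36 ± 0.922 and Efnb1 at 6.00 ± 0.851 CPM per kb (SD, n = 3). In SCG alone the leading ligands were Efnb1 at 21.3 ± 3.26, Efnb2 at 12.9 ± 1.66 and Efna2 at 11.2 ± 1.57 (SD, n = 3). Efna2, an ephrin-A ligand, was about level with Epha5 in the explants and was at 0.966 ± 0.221 in PSCs.

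Slit2 and Slit3 were the main Slits. Slit2 stood at 11.7 ± 0.649 in PSCs against 2.46 ± 1.22 in SCG, and Slit3 at 8.18 ± 3.68 against 10.8 ± 1.09 CPM per kb (SD, n = 3 each). Slit1 did not reach 1 in any library of either table. Robo1, the broadly expressed Slit receptor, was similar in both cultures, at 2.93 ± 0.367 in PSCs and 2.74 ± 0.243 in SCG. Robo3, a divergent Robo known from commissural neurons, was at 1.39 ± 0.270 in PSCs and at 0.00911 in SCG, while Robo4, the endothelial Robo, had a value above 0 in 1 of 6 PSC libraries and stood at 0.415 ± 0.293 in SCG.

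Unc5b was the leading netrin receptor and the highest of the 41 genes in SCG alone, at 46.1 ± 6.95, and was at 42.0 ± 7.55 in PSCs, where it overlapped Epha2. Neo1 was the next netrin receptor in both, at 26.6 ± 1.79 in PSCs and 15.2 ± 2.55 in SCG (CPM per kb, SD, n = 3 each). Dcc and Unc5d were at or near 0 in PSCs and at 0.456 and 0.136 in SCG, and Unc5a was at 0.0378 and 5.67 ± 2.46. Of the netrins, Ntn1 and Ntn4, a laminin-binding netrin, were expressed in both, at 5.19 ± 1.07 and 5.96 ± 1.32 in PSCs and 3.14 ± 0.379 and 8.23 ± 4.72 in SCG. Ntng1 was at 0.0381 in PSCs and 7.95 ± 1.44 in SCG. A share of 21.3% of the Ntng2 exons and 3.26% of the Ntn3 exons overlaps another gene, which makes these 2 levels less certain.

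The next question was whether PSCs changed these genes when SCG explants were present. Of the 41 genes, 34 had values that summed to at least 10 over the 6 PSC libraries and were tested. A gene was called where its limma adjusted p did not exceed 0.05 and its log2 fold change was 0.5 or more in size. None of the 34 was called, and 0% of all 21273 tested genes were. The lowest limma adjusted p of a guidance gene was 0.9999, and 0 had an unadjusted p under 0.05, as 408 of all genes (1.92%) did. Groups that did not overlap were found for 0 guidance genes and for 5.6% of all genes. The replicate numbers were taken to pair the libraries, since libraries of the same number deviated together. Each test was therefore also run with the replicate number as a block. With the block, 0 guidance genes and 98 of all genes (0.461%) were called, and 2 guidance genes, Slit3 and Ephb2, had an unadjusted p under 0.05.

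The receptors and ligands that led in PSCs overlapped between the groups. The normalized counts of Epha2 were 5319, 5145 and 8747 in PSC replicates 1 to 3 and 5575, 4659.5 and 11559.9 in PSC+SCG replicates 1 to 3. Unc5b had 8798, 7322 and 10781 and 8675, 6927 and 16494, in the same order. Replicate 3 was the highest of both groups for each gene, the groups overlapped, and the log2 fold changes were 0.11 (SE 0.34) and 0.17 (SE 0.30).

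Efnb2 had 2102, 1928 and 3366 normalized counts in PSC and 2189, 1701 and 3708 in PSC+SCG. Ntn4 had 793, 633 and 1015 and 767, 712 and 1370.1. Both were again highest in replicate 3 of each group and their groups overlapped, with log2 fold changes of 0.01 (SE 0.30) and 0.18 (SE 0.27).

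Ephb4 had 2842, 2298 and 2062 normalized counts in PSC and 2542, 2772 and 2496 in PSC+SCG. Efna4 had 426, 361 and 340.0 and 393, 547 and 368. Robo1 had 1066, 985 and 871 and 1259.7, 1199 and 791. For these 3 genes the groups overlapped, and the log2 fold changes were 0.13, 0.20 and 0.13.

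Slit2, Ntn1 and Ntng1 were followed in every comparison because the study names them as guidance cues of cancer-associated fibroblasts. Slit2 had 7793, 7185 and 7898 normalized counts in PSC and 9390.1, 7046 and 8327 in PSC+SCG. The lowest value of the 6 was in PSC+SCG and so was the highest, and the log2 fold change was 0.11 (SE 0.14), with a 95% interval from -0.21 to 0.42.

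Ntn1 had 1032, 1526 and 1135 normalized counts in PSC and 1277, 1864 and 897 in PSC+SCG, where replicate 2 was the highest of both groups. Its log2 fold change was 0.09 (SE 0.26) and its sign turned when PSC replicate 1 or PSC+SCG replicate 2 was left out. Ntng1 was low throughout, with 5.92, 6.81 and 12.5 in PSC and 13.8, 8.88 and 13.8 in PSC+SCG, and a log2 fold change of 0.52 (SE 0.48) that rests on a few reads per library.

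Slit3 was above its partner in every replicate number, and with Ephb2 was named after the values were seen. It had 5077, 3636 and 2017 normalized counts in PSC and 5401, 4512 and 2763 in PSC+SCG. The groups overlapped, replicate 3 was the lowest of each, and the PSC+SCG library was above the PSC library of the same number in 3 of 3 pairs, by 0.09, 0.31 and 0.45 on the log2 scale. With the replicate block the log2 fold change was 0.28 (SE 0.10, limma adjusted p = 0.31), which did not pass.

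Over the 34 tested genes the median log2 fold change in PSCs was 0.11, against -0.01 over all genes. The 95% interval lay within 1 of 0 on the log2 scale for 25 genes, and for 29 with the block. The 7 genes that were not tested (Epha5, Epha6, Epha8, Epha10, Robo4, Dcc and Unc5d) had 0 to 3.41 normalized counts in each PSC library, too few to say whether they differed. The plot of fold changes gives each interval.

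**Figure D2:**
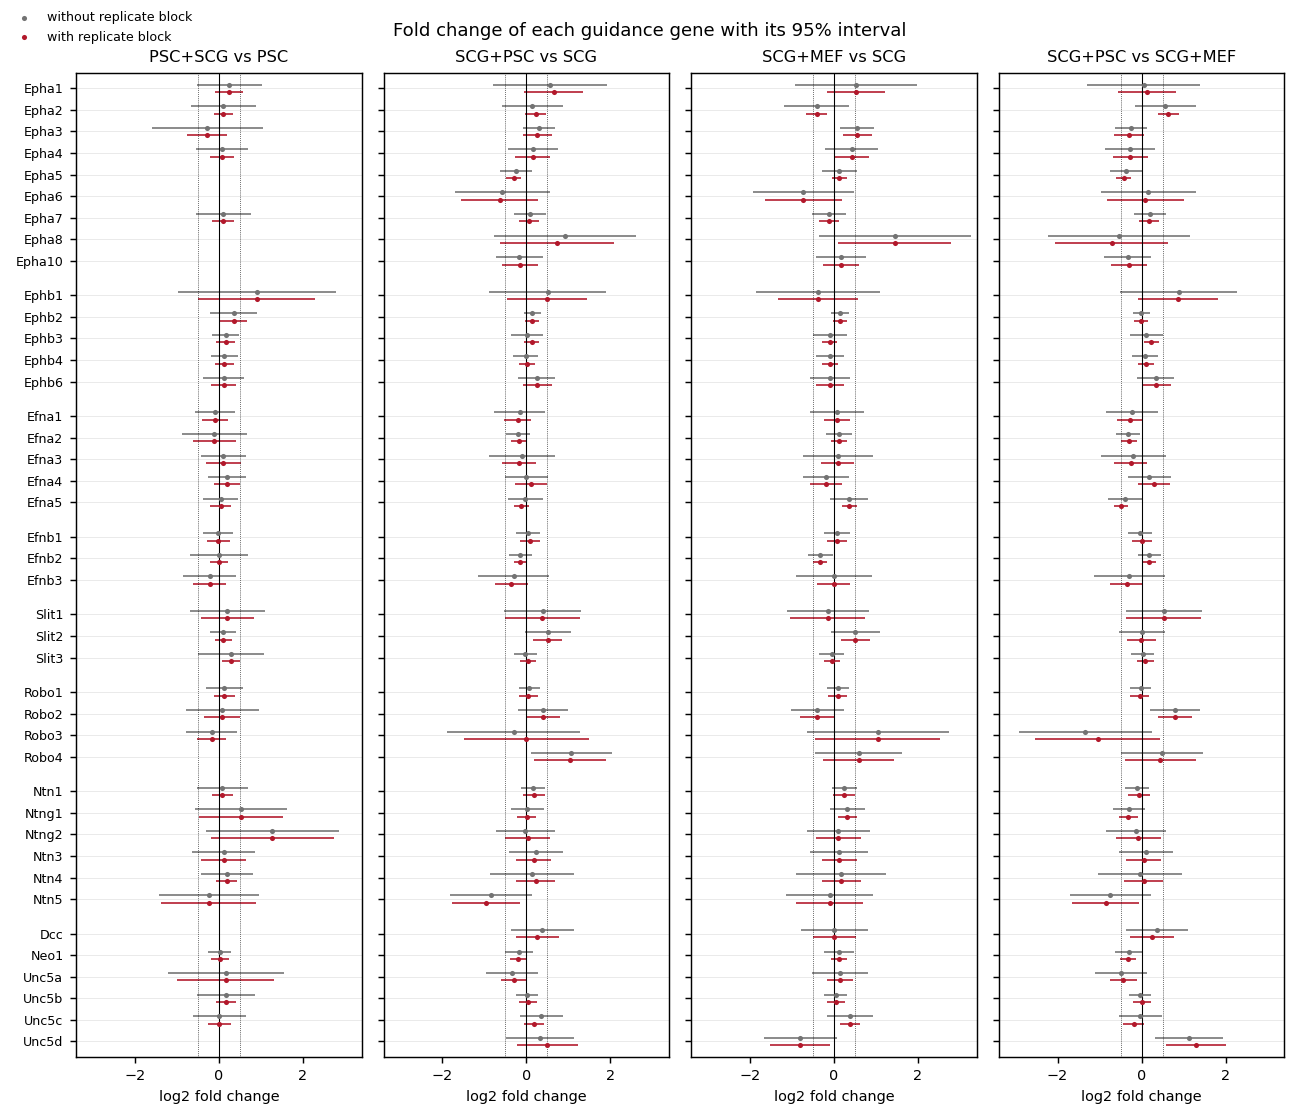
Log2 fold change (x axis) of each tested guidance gene (y axis, by family) in the 4 comparisons, with points for the estimate and lines for the 95% interval, without (gray) and with (red) the replicate number as a block. Dotted lines mark 0.5 in each direction, and Epha2 in the comparison of SCG+PSC with SCG+MEF was the one gene called, with the block.

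In the explants all 41 genes were tested. None was called without the block in SCG+PSC against SCG, where 8 of 23779 genes (0.0336%) were, in SCG+MEF against SCG, where 3 genes (0.0126%) were, or in SCG+PSC against SCG+MEF, where 0 genes (0%) were. The lowest limma adjusted p of a guidance gene was 0.945, 1 and 0.9998 in these comparisons. Guidance genes with an unadjusted p under 0.05 numbered 1, 2 and 3, which is 2.44%, 4.88% and 7.32% of the 41 against 5.05%, 3.37% and 4.08% of all genes. With the block the calls over all genes rose to 312 (1.31%), 38 (0.16%) and 187 (0.786%), and the calls among the guidance genes were 0, 0 and 1. The guidance genes with an unadjusted p under 0.05 then numbered 5, 10 and 13, or 12.2%, 24.4% and 31.7%, against 10.6%, 7.5% and 11.7% of all genes. Of the 15984 tested protein-coding genes, the class of all guidance genes, 2111, 1293 and 2356 had an unadjusted p under 0.05 with the block. SCG+PSC replicate 4 has no partner of its number and adds nothing to the blocked differences. The 3 comparisons share libraries, so they are not independent of each other.

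Most of these genes varied more between replicate numbers than between culture groups in the explants. Over the 9 libraries numbered 1 to 3, replicate number held a median of 52.8% of a guidance gene's squared spread on the log2 scale and the culture group 19.1%. Replicate number held more than group for 35 of the 41 genes (85.4%), and for 71.1% of all 23779 genes. Ephb1, an ephrin-B receptor named after its values were seen, had 1518, 728 and 325 normalized counts in SCG replicates 1 to 3 and 1111, 954 and 154 in SCG+MEF, lowest in replicate 3 of both, but 1122, 806, 1104 and 1037 in SCG+PSC. Ntn4 had 385, 1565 and 1261 in SCG, 569.8, 1272 and 1494 in SCG+MEF and 811, 1429, 1035 and 852 in SCG+PSC, lowest in replicate 1 of each group.

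**Figure D3:**
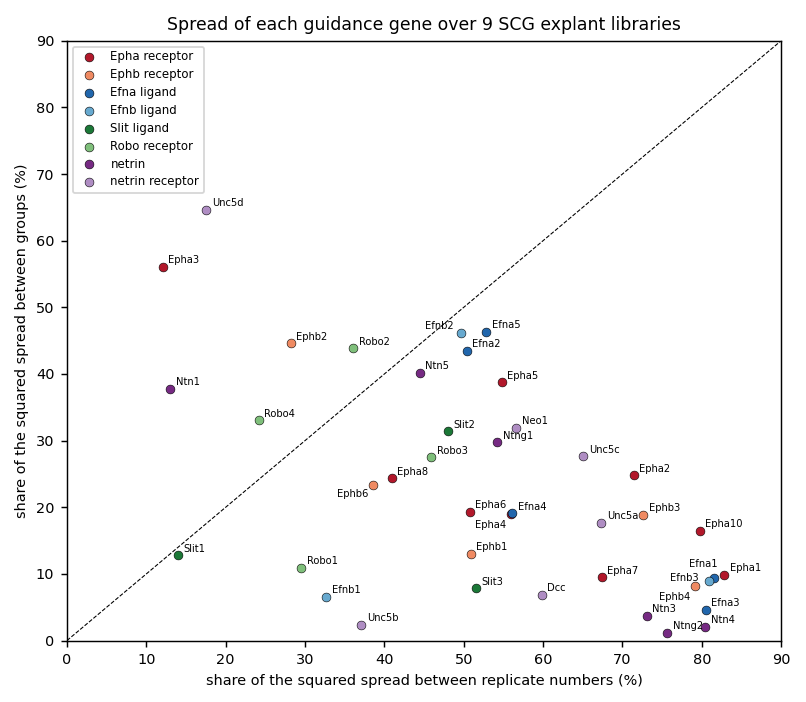
For each of the 41 guidance genes, the percent of its squared spread over 9 explant libraries that lay between replicate numbers (x axis) and between culture groups (y axis), colored by family. The dashed line marks equal shares, 35 genes lie below it, and Unc5d, Epha3, Ephb2, Robo2, Robo4 and Ntn1 lie above it.

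Epha2 was the one guidance gene called, and it was higher in explants grown with PSCs than with MEFs. Its normalized counts were 576, 1183 and 750.0 in SCG replicates 1 to 3, 409.6, 1006 and 522 in SCG+MEF replicates 1 to 3 and 787, 1373, 753 and 751 in SCG+PSC replicates 1 to 4. Replicate 2 was the highest library of every group and the groups overlapped, but within each number SCG+MEF was the lowest of the 3 cultures and SCG+PSC the highest. SCG+PSC exceeded SCG+MEF by 0.94, 0.45 and 0.53 on the log2 scale in replicates 1, 2 and 3. The log2 fold change between them was 0.56 (SE 0.33) without the block and 0.64 (SE 0.11, limma adjusted p = 0.0294) with it, which was a call. The call held without replicate 2 of every group, at 0.73 (limma adjusted p = 0.0297). It was lost without replicate 1, at 0.49 (limma adjusted p = 0.355), and without replicate 3, at 0.69 (limma adjusted p = 0.113).

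Against SCG alone, Epha2 had blocked log2 fold changes of 0.22 (SE 0.11, limma adjusted p = 0.528) in SCG+PSC and of -0.42 (SE 0.11, limma adjusted p = 0.295) in SCG+MEF, and neither was called.

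Efna5 and Epha5 passed the adjusted p but not the fold threshold in the same blocked comparison, where 229 of all genes (0.963%) passed the adjusted p, and Efna5 was named after its values were seen. Efna5, an ephrin-A ligand that repels axons, had 889, 776 and 1183 normalized counts in SCG, 1196, 1011 and 1436 in SCG+MEF and 833, 729, 1032 and 1132 in SCG+PSC. Within each replicate number SCG+MEF was the highest. The groups overlapped, and SCG+PSC replicates 3 and 4 lay within the range of SCG+MEF. The blocked log2 fold change of SCG+PSC against SCG+MEF was -0.49 (SE 0.08, limma adjusted p = 0.0256), with differences of -0.52, -0.47 and -0.48 in replicates 1, 2 and 3, and -0.39 (SE 0.19) without the block. SCG+MEF against SCG gave 0.36 (SE 0.08, limma adjusted p = 0.154) with the block.

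Epha5, the leading Epha receptor of the explants, had 5171, 4849 and 6591 normalized counts in SCG, 6392, 4567 and 7297 in SCG+MEF and 4679, 3708, 5046 and 5258 in SCG+PSC. SCG+PSC was the lowest culture of each replicate number and the groups overlapped. Its blocked log2 fold change was -0.43 (SE 0.08, limma adjusted p = 0.0379) against SCG+MEF and -0.31 (SE 0.08, limma adjusted p = 0.124) against SCG, and -0.37 (SE 0.18) against SCG+MEF without the block. Without replicate 1, 2 or 3 of every group the adjusted p of the blocked difference from SCG+MEF ranged from 0.0387 to 0.306 for Epha5 and from 0.0647 to 0.313 for Efna5. In the same comparison the 10 sympathetic neuron markers had a median blocked log2 difference of -0.13 between SCG+PSC and SCG+MEF, with 0 called by limma and 3 at an unadjusted p under 0.05. Of the 8 fibroblast markers Lum was called lower with the block in SCG+PSC than in SCG+MEF, at a log2 fold change of -0.64 (SE 0.13, limma adjusted p = 0.0437), and the list median was -0.03. The part of these markers in the differences of Epha2, Efna5 and Epha5 was not tested.

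**Figure D4:**
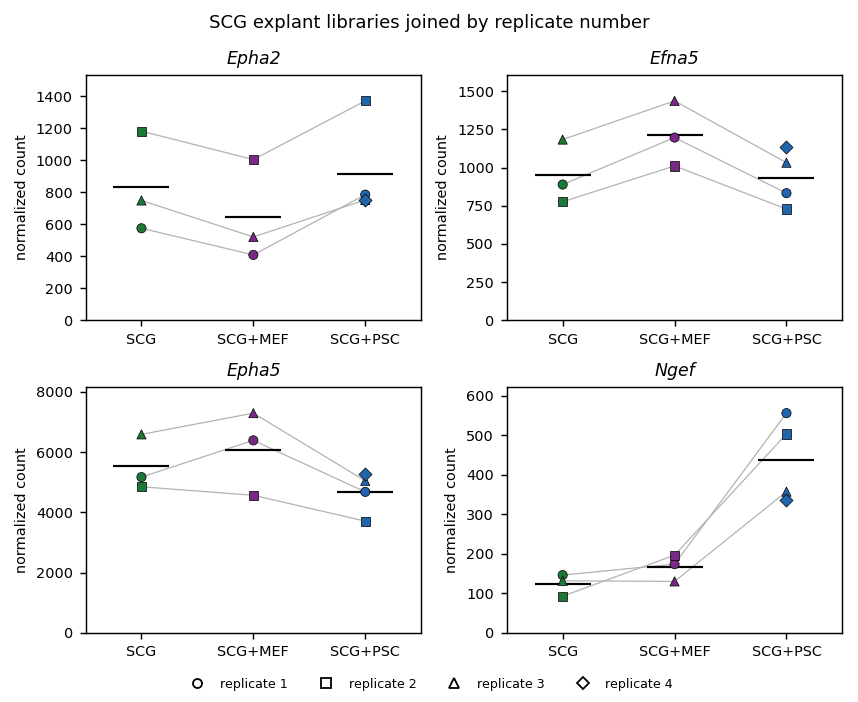
Normalized counts (y axis) of Epha2, Efna5, Epha5 and Ngef in each explant library by culture group (x axis), with symbols for the replicate number, gray lines joining libraries of the same number and black bars for group means. Epha2 is lowest and Efna5 highest in SCG+MEF within each number, and Ngef is higher in all 4 SCG+PSC libraries than in the other 6.

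The promoters of these 3 genes are shown because they are the guidance genes whose adjusted p passed with the block. Each is the strand of the gene, 5′ to 3′, from 250 bases before to 50 bases after the annotated start in GRCm39 (Epha2 chr4:141028290-141028589, plus strand; Efna5 chr17:63188263-63188562 and Epha5 chr5:84565299-84565598, minus strand). Capitals mark matches on either strand to GCGTG (the core bound by the aryl hydrocarbon receptor), TGACGTCA (the cAMP response element) and GGGCGG (the GC box).
Epha2: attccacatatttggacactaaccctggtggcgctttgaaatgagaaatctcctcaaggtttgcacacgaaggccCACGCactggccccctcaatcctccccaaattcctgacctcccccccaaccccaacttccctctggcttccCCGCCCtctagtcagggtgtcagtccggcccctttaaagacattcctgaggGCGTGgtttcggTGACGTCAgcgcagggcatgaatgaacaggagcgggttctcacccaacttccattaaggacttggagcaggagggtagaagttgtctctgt
Efna5: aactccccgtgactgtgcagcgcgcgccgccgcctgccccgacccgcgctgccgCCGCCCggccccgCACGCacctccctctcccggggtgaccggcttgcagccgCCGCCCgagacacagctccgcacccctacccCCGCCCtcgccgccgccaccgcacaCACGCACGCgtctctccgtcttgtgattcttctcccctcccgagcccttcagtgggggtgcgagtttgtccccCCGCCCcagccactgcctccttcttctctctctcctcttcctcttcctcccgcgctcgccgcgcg
Epha5: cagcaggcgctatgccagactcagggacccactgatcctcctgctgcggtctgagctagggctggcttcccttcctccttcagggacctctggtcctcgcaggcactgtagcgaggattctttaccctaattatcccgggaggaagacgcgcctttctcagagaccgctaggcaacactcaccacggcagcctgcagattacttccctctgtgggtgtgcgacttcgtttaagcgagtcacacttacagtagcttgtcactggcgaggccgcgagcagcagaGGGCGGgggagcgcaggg

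The Epha2 window holds all 3 motifs, the Efna5 window GCGTG and GGGCGG, and the Epha5 window GGGCGG. Over the 41 guidance genes 18 windows hold GCGTG (43.9%, against 37% of 21621 protein-coding genes), 24 hold GGGCGG (58.5% against 42.6%) and 1, that of Epha2, holds TGACGTCA (2.44% against 2.44%). TGACGTCA was added to the search after the Epha2 sequence was seen. The 3 windows differ in CpG dinucleotides, with 10 in Epha2, 38 in Efna5 and 17 in Epha5, where the median was 17 over the guidance genes and 11 over all genes.

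Among the other Eph receptors and ephrins, Epha3 separated SCG+MEF from SCG. It had 266, 355 and 350.4 normalized counts in SCG, 407, 459 and 564 in SCG+MEF and 449.9, 314, 402 and 429.7 in SCG+PSC. Every SCG+MEF library was above every SCG library, and the log2 fold change was 0.55 (SE 0.19), or 0.55 (SE 0.16, limma adjusted p = 0.343) with the block. It was the one guidance gene of 41 with groups that did not overlap, a log2 fold change of 0.5 or more in size and a mean of 10 or more in a group, where 2.1% of all genes met these criteria.

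Efnb2, the ligand of Ephb4, was lower in SCG+MEF than in SCG in every library, with 1968, 2513 and 2168 normalized counts in SCG, 1562, 1929.6 and 1798 in SCG+MEF and 1832, 2342, 1863 and 1983 in SCG+PSC. SCG+MEF against SCG gave a log2 fold change of -0.33 (SE 0.13), or -0.33 (SE 0.08, limma adjusted p = 0.172) with the block. Mural cell markers had a median log2 difference of -0.51 in the same comparison, with 0 of 5 called by limma and 2 at an unadjusted p under 0.05. In SCG+PSC against SCG, where Efnb2 overlapped between the groups, the mural median was also -0.51, with 3 of 5 at an unadjusted p under 0.05. The part of these markers in the Efnb2 result was not tested.

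Ephb3 and Efnb1 led their families in the explants and overlapped across the cultures. Ephb3 had 2111, 2424 and 1852 normalized counts in SCG, 2224, 2094 and 1651 in SCG+MEF and 2414, 2729.9, 1871 and 1701 in SCG+PSC. Efnb1 had 2253, 3008 and 3067, 2687, 2906 and 3108 and 3010.2, 3142, 2623 and 2539 in the same groups. Without the block their log2 fold changes lay between -0.10 and 0.12 for Ephb3 (-0.10 to 0.23 with it) and between -0.04 and 0.07 for Efnb1 (0.01 to 0.09 with it).

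Efna2 had 928, 864 and 728 normalized counts in SCG, 1048, 846 and 848 in SCG+MEF and 822, 742, 664 and 679.8 in SCG+PSC. All 4 SCG+PSC libraries lay below the 3 SCG+MEF libraries, at a log2 fold change of -0.33 (SE 0.13), or -0.30 (SE 0.09, limma adjusted p = 0.182) with the block. In that comparison 2 guidance genes, Efna2 and Ntn5, had groups that did not overlap, where 4.77% of all genes did. In SCG+MEF against SCG there were 4 such genes (Epha3, Efnb2, Ntn1 and Robo3) beside 6.62% of all genes, and in SCG+PSC against SCG there were 0 beside 5.16%. The separation of Robo3 was near the floor, with 0 to 3.037 normalized counts in SCG and 3.041 to 5.255 in SCG+MEF.

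Slit2 was higher in most cocultures than in SCG alone. It had 1077, 2363 and 1108 normalized counts in SCG replicates 1 to 3, 1873, 2469 and 1751 in SCG+MEF and 1609.7, 2283, 2186 and 2075 in SCG+PSC. SCG replicate 2 was as high as the cocultures, and the other 2 SCG libraries were below all of them. Against SCG the log2 fold change was 0.52 (SE 0.25) in SCG+PSC and 0.51 (SE 0.27) in SCG+MEF, and with the block 0.50 (SE 0.16, limma adjusted p = 0.199) and 0.51 (SE 0.16, limma adjusted p = 0.412). Without replicate 2 of every group both blocked differences became calls, at log2 fold changes of 0.78 (limma adjusted p = 0.0083) and 0.73 (limma adjusted p = 0.0493). Without replicate 1 they were 0.47 (limma adjusted p = 0.564) and 0.36 (limma adjusted p = 0.986), and without replicate 3 they were 0.26 (limma adjusted p = 0.627) and 0.43 (limma adjusted p = 0.524), with no call. Between the cocultures the difference was -0.0037 (SE 0.16) with the block, with a 95% interval from -0.34 to 0.34. Of 8 fibroblast markers Lum was also called higher with the block in SCG+PSC, and Lum and Dcn in SCG+MEF, against SCG, with a list median of 0.35 and 0.31, and their part in the Slit2 difference was not tested.

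Slit3, the leading Slit of the explants, had 4071, 4967 and 4512 normalized counts in SCG, 4548, 4495 and 4006 in SCG+MEF and 4845, 5206, 3932 and 3871 in SCG+PSC. Robo1 had 921, 879.9 and 803, 977, 912 and 888 and 942, 768, 993 and 961 in the same groups. Both overlapped across the groups, and their largest log2 fold change in size, with or without the block, was 0.09, that of Robo1 in SCG+MEF against SCG.

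Robo2, Robo4 and Unc5d had an unadjusted p under 0.05 without the block and were named after their values were seen. Robo2, a Slit receptor of neurons, had 466, 576 and 269 normalized counts in SCG, 286, 461 and 239 in SCG+MEF and 460.4, 616, 581 and 548 in SCG+PSC. SCG+PSC was above SCG+MEF in 3 of 3 replicate numbers, though SCG+PSC replicate 1 was level with SCG+MEF replicate 2. Between the cocultures the log2 fold change was 0.79 (SE 0.27), and 0.79 (SE 0.19, limma adjusted p = 0.0772) with the block, and was not called.

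Robo4 had 126, 65.6 and 25.6 normalized counts in SCG, 117, 102 and 61.8 in SCG+MEF and 116, 99.3, 163 and 137 in SCG+PSC. SCG replicate 1 was as high as SCG+PSC replicate 1 and SCG replicate 3 was the lowest library. SCG+PSC against SCG gave a log2 fold change of 1.07 (SE 0.44), and 1.04 (SE 0.39, limma adjusted p = 0.336) with the block. The 7 endothelial markers had a median log2 difference of 1.004 in that comparison, with 0 called by limma, 7 of 7 at an unadjusted p under 0.05, 6 of these higher in SCG+PSC and Emcn lower, while their summed level was 98.7 to 129 CPM in SCG and 119 to 129 in SCG+PSC. Their part in the Robo4 difference was not tested.

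Ntn1 had 604, 769 and 754 normalized counts in SCG, 893, 796 and 828 in SCG+MEF and 779.9, 921, 706 and 736 in SCG+PSC. The 3 SCG+MEF libraries were above the 3 SCG libraries, by a log2 fold change of 0.25 (SE 0.14), or 0.25 (SE 0.12, limma adjusted p = 0.689) with the block. SCG+PSC overlapped both groups.

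Ntng1 had the highest mean level of the netrins over all explant libraries, at 8.57 CPM per kb against 8.18 for Ntn4. In SCG alone Ntn4 was the higher, at 8.23 against 7.95, and the libraries of both genes overlapped. Ntng1 had 1904, 1701 and 1368 normalized counts in SCG, 2701, 1738 and 1831 in SCG+MEF and 1948, 1396, 1637 and 1743 in SCG+PSC. SCG+MEF replicate 1 was the highest library and the groups overlapped. The log2 fold change was 0.02 (SE 0.18) for SCG+PSC against SCG, and 0.32 (SE 0.11, limma adjusted p = 0.474) for SCG+MEF against SCG and -0.32 (SE 0.11, limma adjusted p = 0.242) for SCG+PSC against SCG+MEF, both with the block.

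Ntn5 was low, with 31.4, 14.3 and 53.3 normalized counts in SCG, 32.4, 21.0 and 28.4 in SCG+MEF and 20.1, 9.12, 16.0 and 20.2 in SCG+PSC. Every SCG+PSC library was below every SCG+MEF library, at a log2 fold change of -0.74 (SE 0.44), or -0.86 (SE 0.37, limma adjusted p = 0.385) with the block. Ntn5 was the one guidance gene with such a separation at a log2 fold change of 0.5 or more in size between the cocultures, where 1.42% of all genes met the same criteria, and in SCG+PSC against SCG and in PSC+SCG against PSC 0 guidance genes did beside 1.88% and 1.96% of all genes.

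Of the netrin receptors, Unc5b had 7914, 9145 and 11098 normalized counts in SCG, 8957, 10146 and 9582 in SCG+MEF and 9481, 10319, 9048 and 8557 in SCG+PSC, which overlapped. Its log2 fold change was 0.01 (SE 0.12) in SCG+PSC and 0.04 (SE 0.13) in SCG+MEF against SCG. Unc5d was expressed at a low level, with 61.8, 30.4 and 36.9 in SCG, 36.5, 23.6 and 14.2 in SCG+MEF and 57.6, 53.7, 65.2 and 35.3 in SCG+PSC. SCG+PSC replicates 1 to 3 were above all SCG+MEF libraries and replicate 4 was just below SCG+MEF replicate 1. It differed between the cocultures by a log2 fold change of 1.13 (SE 0.37), and 1.31 (SE 0.33, limma adjusted p = 0.0979) with the block, and was not called.

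**Figure D5:**
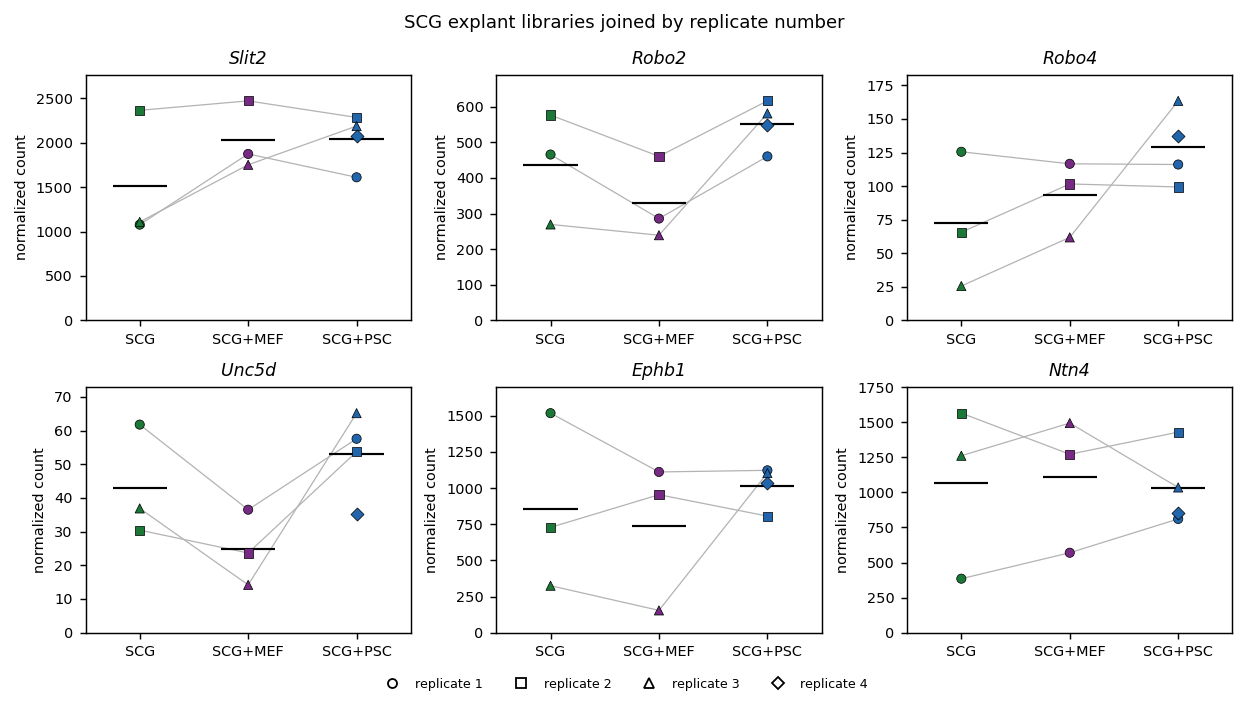
Normalized counts (y axis) of Slit2, Robo2, Robo4, Unc5d, Ephb1 and Ntn4 in each explant library by culture group (x axis), with symbols for the replicate number, gray lines joining libraries of the same number and black bars for group means. Slit2 is as high in SCG replicate 2 as in the cocultures, and Ntn4 is lowest in replicate 1 of each group.

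The remaining guidance genes with an unadjusted p under 0.05 in a blocked explant comparison were Unc5c, Epha4, Epha8 and Unc5d in SCG+MEF against SCG, Neo1 and Ntn5 in SCG+PSC against SCG, and Neo1, Unc5a, Ephb3, Efnb2 and Ephb6 in SCG+PSC against SCG+MEF. None of them passed the adjusted p. Across all 41 genes the median log2 fold change was 0.04 in SCG+PSC against SCG, 0.09 in SCG+MEF against SCG and -0.03 in SCG+PSC against SCG+MEF, and the 95% interval lay within 1 of 0 on the log2 scale for 28, 27 and 26 genes without the block and for 32, 33 and 32 with it.

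Partners of these proteins, within cells and on or outside them, were followed as 3 lists of 24 Eph-ephrin, 19 Slit-Robo and 29 netrin partners. In PSCs 23, 19 and 25 of them were tested and 0 were called with or without the block. In the explants all were tested, and the one gene called in any of the lists was Ngef (ephexin-1, chr1:87404515-87501656), a signalling partner through which EphA receptors act on the axon cytoskeleton. Ngef had 146, 92.3 and 131 normalized counts in SCG, 173, 196 and 129.7 in SCG+MEF and 555, 503, 357 and 336 in SCG+PSC. All 4 SCG+PSC libraries were above the other 6, which ranged from 92.3 to 196.

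Ngef rose in SCG+PSC against SCG by a log2 fold change of 1.81 (SE 0.24, limma adjusted p = 0.0271), or 1.93 (SE 0.20, limma adjusted p = 0.00168) with the block. Without the block that call was lost when any one library of SCG or SCG+PSC, or SCG+MEF replicate 1, was left out (limma adjusted p up to 0.13), and with the block it held without replicate 1, 2 or 3 of every group. Against SCG+MEF the log2 fold change was 1.377 (SE 0.24, limma adjusted p = 0.588) without and 1.49 (SE 0.20, limma adjusted p = 0.0162) with the block, and the blocked call was lost without replicate 1 (limma adjusted p = 0.182) or replicate 3 (limma adjusted p = 0.0751). In SCG+MEF against SCG the log2 fold change of Ngef was 0.44 (SE 0.25). DESeq2 was run without the block on the 9 explant libraries with recovered reads, which leave out SCG+PSC replicate 4. It called Ngef in SCG+PSC against SCG (DESeq2 adjusted p = 6.4e-10) and against SCG+MEF (DESeq2 adjusted p = 0.00014). In the latter comparison edgeR without the block called 0 genes. In PSCs Ngef had 171, 267 and 262 normalized counts alone and 133, 159 and 162 with SCG, at a log2 fold change of -0.60 (SE 0.24). Without the block the median log2 fold change in SCG+PSC against SCG was -0.02 over the Eph-ephrin partners, -0.03 over the Slit-Robo partners and -0.04 over the netrin partners. Beside Ngef and Epha2, 5 of 5 cycling cell markers were called higher with the block in SCG+PSC against SCG and 4 of 5 against SCG+MEF, with medians of 1.24 and 0.99 on the log2 scale and summed levels of 317 to 578 CPM in SCG+PSC, 82.8 to 407 in SCG, 115 to 419 in SCG+MEF and 1072 to 1513 in the PSC libraries. Their part in these differences was not tested. Of the other marker lists, Fabp7 of the 8 glial markers was called lower with the block in SCG+MEF against SCG and higher in SCG+PSC against SCG+MEF, Mrc1 of the 8 macrophage markers was called higher in SCG+PSC against SCG, and 0 neuron, endothelial, mural and pancreatic epithelial markers were called in any comparison.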

How the data were processed

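The authors aligned stranded reads to GRCm39 with STAR 2.7.10b, counted reads per gene with the basic gene set of GENCODE M33, and scaled the libraries by DESeq2 1.38.3 size factors (R 4.2.2), PSC and explant libraries separately. The deposited signal values are these normalized counts, unfiltered, for 16 libraries, and 0 columns belonged to other samples. The authors used experimental batch as a covariate, which the labels give for no library, so it was not used here.

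Genes with a sum of at least 10 over a table were tested with limma 3.58.1 (R 4.3.3, trended variance) on log2(normalized count + 1), with Benjamini-Hochberg adjustment over all tested genes. Fold changes are on that scale, which understates those of low genes. All 10 explant libraries entered 1 fit. The fits without the block were tested on simulated data, and those with the block were not. The guidance genes and the lists of partners and markers were chosen with earlier results of these data known.

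Same-numbered libraries of different groups correlated in their deviations from the group means (r from 0.231 to 0.475 over 3 PSC pairs and from 0.131 to 0.375 over 9 explant pairs). Differently numbered ones correlated less (at most 0.121 and -0.00329). Deviations from a group mean cancel out, so positive same-numbered values push the others down, and this contrast is not separate evidence. On the same-numbered correlations the numbers were taken to pair the libraries. This pairing comes from the data, since the labels give only the numbers.

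Values in every library are given for genes called in either fit, the gene with the highest level of each family in each table, genes whose groups did not overlap at a log2 fold change of 0.5 or more and a mean of 10 or more, and Slit2, Ntn1 and Ntng1. Exon lengths and promoters came from the GENCODE M39 basic annotation of GRCm39, a later release than the authors used, and matched 14532 of 14541 and 15981 of 15984 tested protein-coding genes. Reads were recovered as whole numbers for 100% of values in 14 libraries, and those of 9 explant libraries were also tested with edgeR 4.0.16 and DESeq2 1.42.0. Other alternatives changed the pseudocount, the filter, the normalization (quantile) or the genes adjusted over (protein-coding ones), fitted 2 groups alone, or left out each library. Low genes rest on few reads, and no library was a duplicate of another.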

Additional observations from a re-analysis of the deposited data

Results flagged for a closer look

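Among the guidance genes, 41 groups of 4 libraries (SCG+PSC, 1 per gene) could be checked for a library far from the other 3 by Dixon's ratio, and 2 were flagged (4.88%), where chance flags about 5%. Epha2 in SCG+PSC replicate 2 had 1373 normalized counts, far above the other 3 libraries, and replicate 2 was also the highest Epha2 library of SCG and of SCG+MEF. Ntn3, a netrin whose exons overlap another gene over 3.26% of their length, had 134 normalized counts in SCG+PSC replicate 2, far below the other 3 libraries. Explants grown with PSCs and with MEFs differed for a guidance gene and for a partner gene with the replicate block: Epha2 was higher with PSCs by 0.64 on the log2 scale (limma adjusted p = 0.0294), and Ngef by 1.49 (limma adjusted p = 0.0162). SCG+PSC was above SCG+MEF in 3 of 3 replicate numbers for both genes.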

How the results depend on the processing

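Without the block, 0 guidance genes were called in the 4 comparisons under every pseudocount, filter, normalization and adjustment, with 2 groups only, with edgeR or DESeq2 and on leaving out each library. The replicate block called 1 (Epha2) in SCG+PSC against SCG+MEF, as did edgeR with the block (1). The fits with the block that leave out replicate 1, 2 or 3 of every group were chosen after seeing the data. Without replicate 2 they called 1 in SCG+PSC against SCG, 1 in SCG+MEF against SCG and 1 in SCG+PSC against SCG+MEF, and without replicate 1 or 3 they called 0. The block changed no other call among the guidance genes. Over all genes it raised the calls from 0 to 98 in PSC+SCG against PSC, from 8 to 312 in SCG+PSC against SCG, from 3 to 38 in SCG+MEF against SCG and from 0 to 187 in SCG+PSC against SCG+MEF. On the recovered reads edgeR called 3, 3 and 0 genes in the explant comparisons, 327, 36 and 212 with the block, and DESeq2 called 59, 22 and 18.

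Differences near 0 changed sign. Slit2 between SCG+PSC and SCG+MEF was -0.00372 with the block, -0.00277 with edgeR, -0.00379 with DESeq2, -0.166 with the block without replicate 3, and -0.0898 to 0.158 on leaving out 1 library. Ntn1 in PSC+SCG against PSC was -0.0253 and -0.0161 with the block without replicate 1 and 2, and -0.181 to 0.346 on leaving out 1 library. Ntng1 in SCG+PSC against SCG was -0.0132 and -0.126 with the block without replicate 1 and 3, and -0.109 to 0.13 on leaving out 1 library. Ntn1 in SCG+PSC against SCG+MEF was 0.00755 with the block without replicate 3. The cause was not tested. With the block the 95% interval reached beyond 1 on the log2 scale in at least 1 comparison for Epha1, Epha6, Epha8, Ephb1, Slit1, Robo2, Robo3, Robo4, Ntn5 and Unc5d, and in PSCs for Ntng1, Ntng2 and Unc5a. Those with few counts included Epha6, Epha8, Robo3, Ntn5 and Unc5d in the explants and Ephb1, Ntn5, Ntng1, Ntng2 and Unc5a in PSCs. The spread between replicate numbers was wide for Ephb1, which had 154 to 1518 normalized counts in the explants. What set the width of these intervals was not tested.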

Other observations

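Neogenin (Neo1), a receptor shared by netrins and repulsive guidance molecules, was the second highest netrin receptor of both cultures. Its normalized counts were 4759, 4793 and 6547 in SCG, 5381, 4941 and 7238 in SCG+MEF and 4705, 4269.8, 4948 and 4936 in SCG+PSC. The groups overlapped, and the SCG+PSC library was the lower in 3 of 3 replicate numbers against SCG+MEF, at log2 differences of -0.19, -0.21 and -0.55. The blocked log2 difference was -0.32 (SE 0.09, limma adjusted p = 0.126), which did not pass. Unc5a, a repulsive netrin receptor, had 890.0, 546 and 1398 normalized counts in SCG, 1129, 729 and 1108 in SCG+MEF and 831, 556, 798 and 618 in SCG+PSC, and a blocked log2 difference of -0.44 (SE 0.15, limma adjusted p = 0.239) between the cocultures. Ephb2, an ephrin-B receptor, had 424, 227 and 280.3 normalized counts in PSC and 443, 365 and 350.0 in PSC+SCG, with a blocked log2 difference of 0.35 (SE 0.16, limma adjusted p = 0.509). These 3 genes were chosen after their values were seen, and none was called.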
